A study of Mus musculus with 18 samples.

Results

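The interleukin-6 (IL-6) family and its STAT3 axis were followed through 10 genes of the mouse kidney: the ligands Il6, Il11, Lif, Osm and Clcf1, the receptors Osmr, Il6ra and Il6st, the transcription factor Stat3 and the feedback inhibitor Socs3. They were taken by gene symbol from a table of 31787 genes, of which 21050 passed a filter on low counts and were tested. All 10 symbols were in the table, and 9 passed the filter; Clcf1 did not. RNA from part of each kidney, with its cell types mixed, was sequenced in 18 libraries, in 6 groups of 3. The study was of endothelial cells that turn mesenchymal in the fibrotic kidney and of tubular Myc. Fibrosis was brought on by unilateral ureteral obstruction (UUO), the ligation of 1 ureter, after which the kidney above the ligature is injured and scars.

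The Twist cKO UUO kidneys came from mice with floxed Twist alleles and Cdh5-CreERT2, a tamoxifen-inducible Cre recombinase active in endothelial cells. The Snail cKO UUO kidneys came from mice with the same Cre and floxed Snail alleles. The Myc cKO UUO kidneys came from mice with floxed Myc alleles and GGT-Cre, which is active in tubular epithelial cells. The WT UUO group and the contralateral group, the kidney opposite the ligated ureter, each held 2 mice of the Twist line with Cre and no floxed allele and 1 with floxed alleles and no Cre. The healthy kidneys came from 3 mice of the Twist line with floxed alleles and no Cre. The labels give a mixed strain of C57BL6, 129sv and Balb/c for the Twist, WT, contralateral and healthy mice. For the Snail and Myc mice they give C57BL6 with Balb/c. The mice were 12 weeks old, and those of the Myc line 11 to 12 weeks. Each knockout is limited to 1 cell type, so the sampled tissue holds many cells that keep the gene. The labels do not say which kidneys share an animal, and p-values therefore measure the spread between these samples. Replicates are numbered in the order of the sample records.

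IL-6 family cytokines signal through gp130, the product of Il6st, which pairs with a second receptor chain that decides which cytokine is heard. IL-6 binds the IL-6 receptor (Il6ra), oncostatin M (Osm) binds its own receptor (Osmr), and leukaemia inhibitory factor (Lif) binds Lifr. IL-11 uses Il11ra1, and Clcf1 acts through Cntfr. JAK kinases bound to the receptors phosphorylate STAT3, which enters the nucleus and turns on target genes. Socs3 is one of them, and its protein binds gp130 and the JAKs and shuts the signal down. In the kidney the pathway is known for acute-phase and injury responses of tubular cells, and IL-11 is known as a profibrotic factor of stromal cells. The RNA level of Stat3 does not measure the phosphorylation of its protein.

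Total counts lay between 52.6 and 91.3 M per library. The 2 mitochondrial ribosomal RNAs took 23.7 to 34.9% of the counts in the knockout UUO kidneys, 19.2 to 20.3% in WT UUO and 44.6 to 50.3% in the contralateral and healthy kidneys together. Markers of proximal tubule, of loop, distal tubule and collecting duct, and of podocytes were found in every group, and none of them was at 0 counts over a group. The targeted genes were checked first. Twist1 averaged 0.427 ± 0.151 CPM (counts scaled to the library size by the TMM method) in Twist cKO UUO and 2.59 ± 1.72 CPM in WT UUO kidneys (SD, n = 3 each), and was called lower by edgeR (quasi-likelihood test, adjusted p by Benjamini-Hochberg = 0.0172). Snai1 averaged 1.98 ± 0.293 CPM in Snail cKO UUO and 3.01 ± 0.549 CPM in WT UUO kidneys, which did not pass the test (edgeR adjusted p = 0.487). Myc averaged 16.5 ± 4.95 CPM in Myc cKO UUO and 22.6 ± 1.08 CPM in WT UUO kidneys, which did not pass either (edgeR adjusted p = 0.217). The lower mean of Snai1 was not particular to the Snail knockout, with 2.01 ± 0.189 CPM in Twist and 1.32 ± 0.75 CPM in Myc cKO UUO. Twist1 averaged 1.56 ± 0.265 CPM in Snail and 1.01 ± 0.186 CPM in Myc cKO UUO. Myc averaged 22.2 ± 6.09 CPM in Twist and 20.7 ± 4.87 CPM in Snail cKO UUO. Myc cKO UUO replicate 3 stood apart from the other obstructed kidneys: of the 12 obstructed libraries it held the lowest level of 6 of the 9 tested members (Il6, Il11, Lif, Osmr, Il6st and Socs3). The highest level among the 12 obstructed libraries fell in a WT UUO library for all 9, in replicate 1 for Il6, Il6ra and Socs3, in replicate 2 for Lif, Osm, Il6st and Stat3, and in replicate 3 for Il11 and Osmr.

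The stretch around the start of transcription is shown for 5 members because these windows hold short motifs of STAT, AP-1 or NF-kappaB factors. Promoters came from RefSeq (GRCm38.p6) and run from 250 bases before to 50 bases after the start. For 8 of the 10 members 9 windows were matched, since Il11 has a pair of starts. The sequences read 5′ to 3′ on the gene's strand, and capitals mark the motif letters. The Socs3 window lies on chr11:117969317-117969616 (minus strand), the Il6 window on chr5:30012864-30013163 (plus strand), the window of the second Il11 start on chr7:4778092-4778391 (minus strand), the Lif window on chr11:4257318-4257617 (plus strand) and the Osmr window on chr15:6874264-6874563 (minus strand).
Socs3: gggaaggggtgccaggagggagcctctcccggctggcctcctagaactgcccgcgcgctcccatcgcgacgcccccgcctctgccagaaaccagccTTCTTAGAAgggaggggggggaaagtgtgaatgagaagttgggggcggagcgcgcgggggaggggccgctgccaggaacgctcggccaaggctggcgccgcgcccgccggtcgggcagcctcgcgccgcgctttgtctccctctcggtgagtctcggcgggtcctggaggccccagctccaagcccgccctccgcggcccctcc
Il6: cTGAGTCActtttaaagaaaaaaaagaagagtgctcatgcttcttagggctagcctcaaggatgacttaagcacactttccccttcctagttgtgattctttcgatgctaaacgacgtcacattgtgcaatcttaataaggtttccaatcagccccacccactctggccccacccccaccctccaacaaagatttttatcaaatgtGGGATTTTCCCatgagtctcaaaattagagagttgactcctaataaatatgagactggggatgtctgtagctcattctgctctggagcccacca
Il11: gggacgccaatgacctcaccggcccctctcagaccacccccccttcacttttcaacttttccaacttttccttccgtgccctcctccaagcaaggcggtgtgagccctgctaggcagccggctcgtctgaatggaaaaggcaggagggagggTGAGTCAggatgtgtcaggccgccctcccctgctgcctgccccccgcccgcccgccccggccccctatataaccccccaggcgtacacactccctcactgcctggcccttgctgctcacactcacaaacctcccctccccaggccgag
Lif: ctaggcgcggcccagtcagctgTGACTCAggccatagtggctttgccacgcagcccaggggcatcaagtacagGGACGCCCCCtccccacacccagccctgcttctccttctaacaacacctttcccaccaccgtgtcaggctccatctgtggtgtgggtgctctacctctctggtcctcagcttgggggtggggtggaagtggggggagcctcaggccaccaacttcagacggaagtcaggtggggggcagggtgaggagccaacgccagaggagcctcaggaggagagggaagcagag
Osmr: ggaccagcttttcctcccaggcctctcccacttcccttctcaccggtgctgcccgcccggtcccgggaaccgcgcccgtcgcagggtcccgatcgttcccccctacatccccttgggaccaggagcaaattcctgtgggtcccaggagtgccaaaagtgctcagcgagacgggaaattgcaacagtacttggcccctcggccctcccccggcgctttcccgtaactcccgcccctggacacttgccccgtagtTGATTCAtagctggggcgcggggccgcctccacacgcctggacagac

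The STAT motif was searched as TTCNNNGAA, the AP-1 motif as TGANTCA and the NF-kappaB motif as GGG and TCC with any 4 bases between them, each on both strands. Socs3 held the only STAT motif among the 9 windows, TTCTTAGAA at position -154 from the start, and 8.3% of all 32841 promoters of this length held one. An AP-1 motif stood in 4 of the 9 windows (Il6, Lif, Osmr and the second start of Il11), against 7.81% of all promoters. An NF-kappaB motif stood in 3 of the 9 windows (Il6, Lif and Il6ra, whose window is not shown), against 19.2% of all promoters. In Il6 the NF-kappaB letters occur as a pair of overlapping matches on opposite strands, at positions -44 and -43. The windows of Il6st, Stat3 and the first start of Il11 held none of the 3 motifs. A match describes letters and does not show that a factor binds. The members sit on several chromosomes of the mm10 build by GENCODE M21, with Lif (chr11:4257557-4272514, plus strand) and Osm (chr11:4236420-4241026, plus strand) as neighbours. Stat3 lies on chr11:100885098-100939540 (minus strand), Il6ra on chr3:89864059-89913196 (minus strand) and Il6st on chr13:112464070-112510086 (plus strand).

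All 9 tested members were higher in WT UUO than in healthy kidneys, and all 9 were higher in WT UUO than in contralateral kidneys, with no overlap between the libraries of the groups in either comparison. The 4 ligands and Socs3 rose most in proportion, and the shared receptor Il6st rose least. Over all genes, the edgeR quasi-likelihood test called 29.2% higher in WT UUO against healthy kidneys and 27.5% higher against contralateral kidneys. The groups did not overlap with WT UUO higher for 32.8% of genes in each of these comparisons. The median log2 fold change of the 9 members was 4.23 against healthy and 3.71 against contralateral kidneys, beside 0.05 and 0.06 over all genes tested. The 4 ligands passed the filter on low counts only through obstructed kidneys, so the filter favoured a rise for them. The counts of members, the lack of overlap and the medians include these ligands. The receptors, Stat3 and Socs3 had enough counts in every group. In bulk tissue, more cells of a type and more RNA per cell cannot be told apart.

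**Figure D1:**
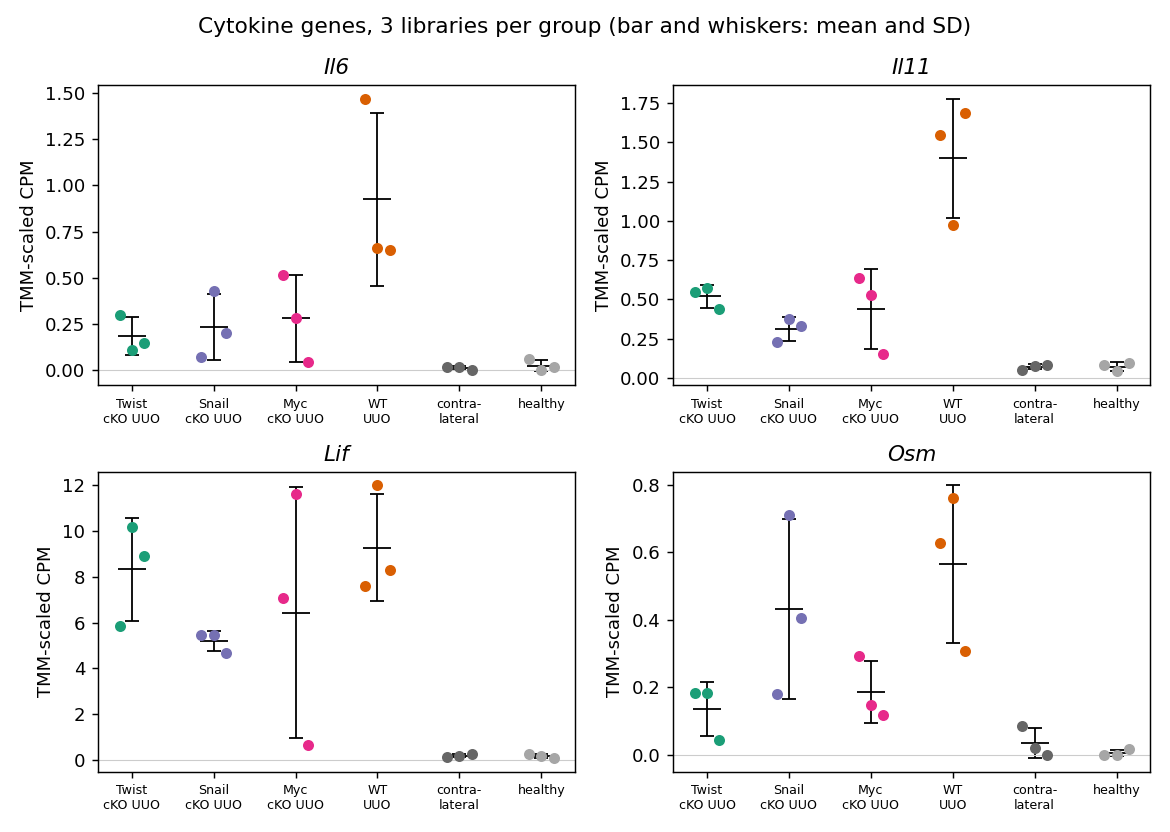
Levels of the cytokine genes Il6, Il11, Lif and Osm in TMM-scaled CPM (y axis) in each of 3 libraries of the 6 groups (x axis); points are libraries, the bar and whiskers the mean and SD. The 3 WT UUO libraries lie above every contralateral and healthy library for each gene, and Myc cKO UUO replicate 3 has 0.657 CPM of Lif, against 7.06 and 11.6 CPM in the other Myc cKO UUO libraries.

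Il6 encodes the cytokine that names the family. It had 1.47, 0.661 and 0.648 CPM in WT UUO kidneys, 0.0171, 0.0186 and 0 CPM in contralateral kidneys and 0.061, 0 and 0.0155 CPM in healthy kidneys. The 3 WT UUO libraries stood above all others, and replicate 1 was the highest of them. The summed counts were 230 in WT UUO and 4 in healthy kidneys, a ratio of depth-scaled counts of 37.9 (95% interval of counting error 14.6 to 140), and the edgeR log2 fold change was 5.12 ± 1.01 (SE; adjusted p = 0.000514). Against the contralateral kidneys, with 2 counts, the ratio was 80.9 (22.1 to 672; edgeR log2 fold change 6.12 ± 1.11, adjusted p = 0.00026).

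Il11 had 1.55, 0.973 and 1.69 CPM in WT UUO kidneys, 0.0512, 0.0743 and 0.082 CPM in contralateral kidneys and 0.0814, 0.041 and 0.093 CPM in healthy kidneys. The unobstructed groups overlapped each other and lay far below WT UUO. Its edgeR log2 fold change was 4.23 ± 0.50 against healthy kidneys (adjusted p = 4.57e-06) and 4.31 ± 0.50 against contralateral kidneys (adjusted p = 4.72e-06).

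Lif, the cytokine that acts through Lifr and gp130, was the ligand with the highest level in CPM. It had 7.6, 12 and 8.29 CPM in WT UUO kidneys, 0.137, 0.167 and 0.263 CPM in contralateral kidneys and 0.264, 0.184 and 0.0775 CPM in healthy kidneys. The contralateral and healthy libraries interleaved. Its log2 fold change by edgeR was 5.75 ± 0.81 against healthy kidneys (adjusted p = 2.59e-05) and 5.60 ± 0.79 against contralateral kidneys (adjusted p = 3.19e-05), which is 53.9-fold and 48.5-fold higher.

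Osm, a cytokine made chiefly by myeloid cells, was the scarcest of the tested ligands in WT UUO kidneys. It had 0.627, 0.761 and 0.306 CPM there, 0.0854, 0.0186 and 0 CPM in contralateral kidneys and 0, 0 and 0.0155 CPM in healthy kidneys. With 139 counts in WT UUO against 1 in healthy kidneys, the ratio was 91.6 with a counting interval of 16.2 to 3640. Against the 6 counts of the contralateral kidneys it was 16.3 (7.3 to 45.1), and both differences passed the edgeR test (adjusted p = 0.00021 and 0.00125).

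Clcf1 had a single count in all 18 libraries, in Snail cKO UUO replicate 3, and was not tested. In the GENCODE M21 annotation its exons share 311 bases (8.2% of its exon bases) on the same strand with the gene AC109138.7, and how reads were counted there is not given in the sources used here.

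Among the receptors, Osmr, the chain that binds oncostatin M, rose more than Il6ra and Il6st. Osmr had 142, 142 and 151 CPM in WT UUO kidneys, 25.6, 34.8 and 21.4 CPM in contralateral kidneys and 29.7, 22.7 and 27.6 CPM in healthy kidneys. That is 5.44-fold higher in WT UUO than in healthy kidneys (edgeR log2 fold change 2.44 ± 0.21, adjusted p = 2.36e-07) and 5.32-fold higher than in contralateral kidneys (2.41 ± 0.21, adjusted p = 3.92e-07). The WT UUO libraries lay close together and the unobstructed groups overlapped.

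Il6ra, the chain that binds IL-6, had 14.6, 12.1 and 10.6 CPM in WT UUO kidneys, 4.88, 3.96 and 4.66 CPM in contralateral kidneys and 3.84, 3.34 and 4.62 CPM in healthy kidneys. It was 3.15-fold higher in WT UUO than in healthy kidneys (edgeR log2 fold change 1.66 ± 0.17, adjusted p = 1.11e-06). Il6st, the shared signalling chain gp130, had 497, 498 and 460 CPM in WT UUO kidneys, 253, 329 and 244 CPM in contralateral kidneys and 233, 322 and 223 CPM in healthy kidneys. In each unobstructed group replicate 2 was the highest for Il6st, and all WT UUO libraries lay above it. Its rise of 1.87-fold over healthy kidneys (edgeR log2 fold change 0.90 ± 0.16, adjusted p = 0.000224) and of 1.76-fold over contralateral kidneys (0.82 ± 0.16, adjusted p = 0.000565) was the smallest among the 9 members.

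**Figure D2:**
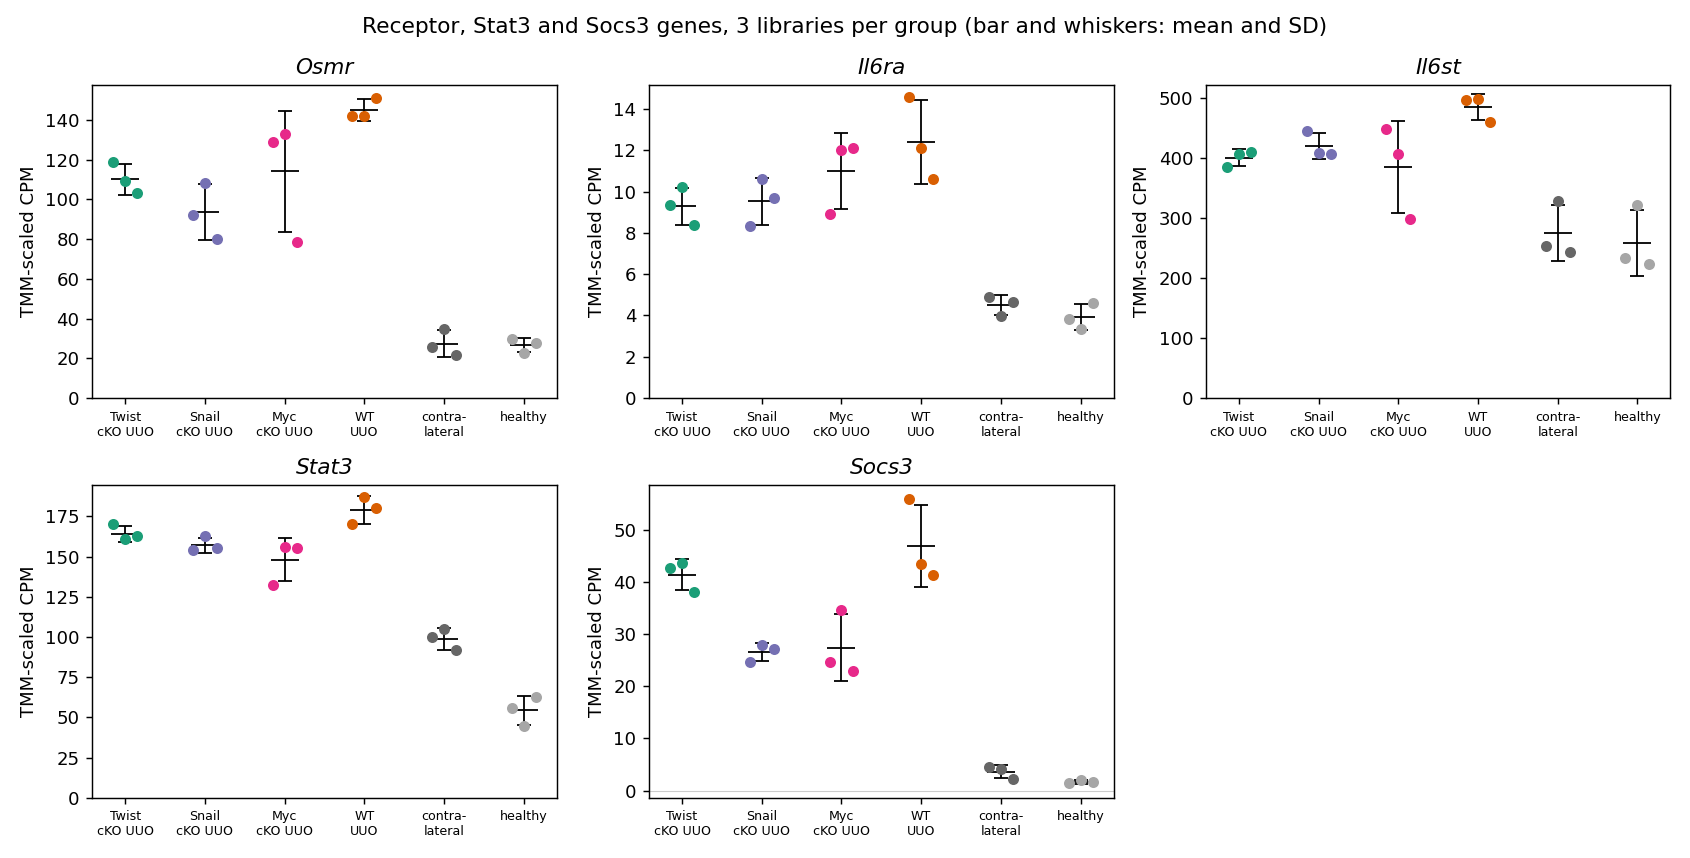
Levels of the receptor genes Osmr, Il6ra and Il6st, of Stat3 and of Socs3 in TMM-scaled CPM (y axis) in each of 3 libraries of the 6 groups (x axis); points are libraries, the bar and whiskers the mean and SD. Stat3 separates the contralateral libraries (91.6 to 105 CPM) from the healthy ones (44.8 to 62.6 CPM), which the 3 receptor genes do not.

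Stat3 had 170, 187 and 180 CPM in WT UUO kidneys, 100, 105 and 91.6 CPM in contralateral kidneys and 55.7, 44.8 and 62.6 CPM in healthy kidneys, so that the 3 groups formed 3 separate steps. It was 3.29-fold higher in WT UUO than in healthy kidneys (edgeR log2 fold change 1.72 ± 0.11, adjusted p = 2.7e-08) and 1.81-fold higher than in contralateral kidneys (0.86 ± 0.11, adjusted p = 8.29e-06). Socs3, the feedback inhibitor, had 55.9, 43.4 and 41.4 CPM in WT UUO kidneys, 4.46, 4.11 and 2.2 CPM in contralateral kidneys and 1.36, 1.95 and 1.58 CPM in healthy kidneys. Its groups were stepped in the same order. It was 28.8-fold higher in WT UUO than in healthy kidneys (edgeR log2 fold change 4.85 ± 0.26, adjusted p = 1.06e-08) and 13.1-fold higher than in contralateral kidneys (3.71 ± 0.24, adjusted p = 5.78e-08). Per kilobase of exon, Socs3 stood at 0.869 ± 0.186 of the level of Stat3 in WT UUO kidneys, at 0.118 ± 0.0351 in contralateral kidneys and at 0.102 ± 0.0353 in healthy kidneys (SD, n = 3 each).

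**Figure D3:**
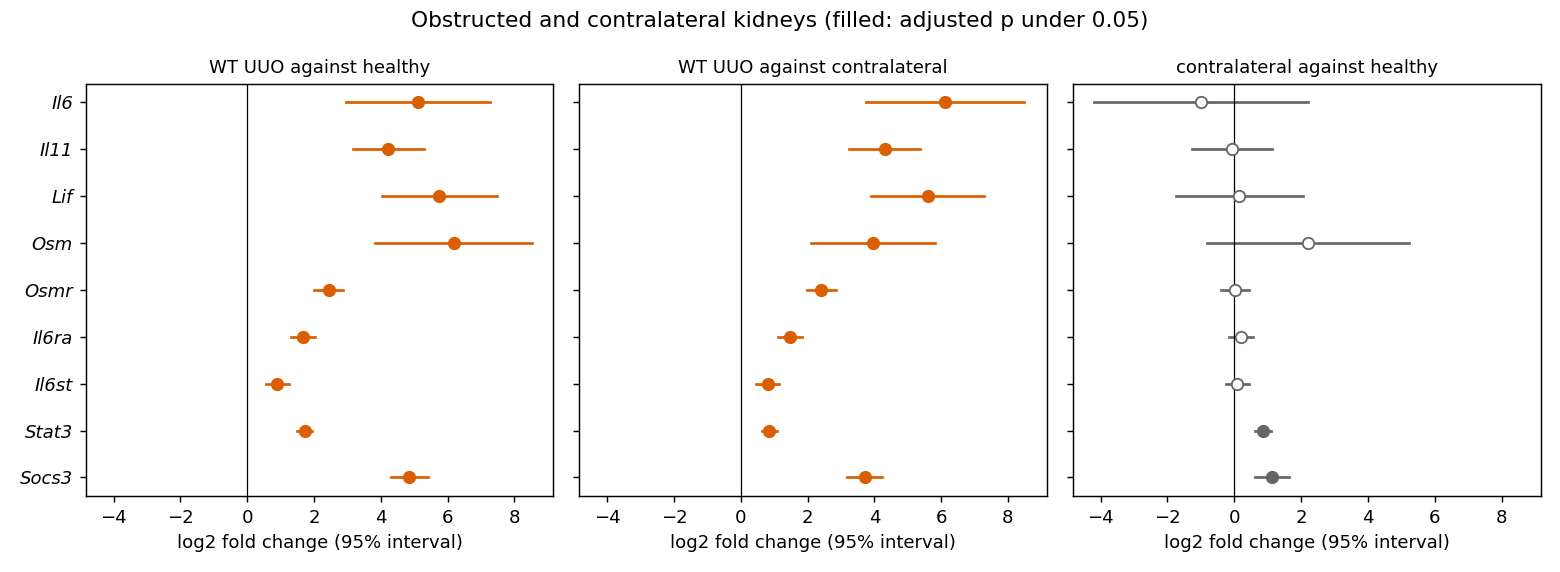
Log2 fold changes (x axis) with 95% intervals of the 9 tested members (y axis) in WT UUO against healthy, WT UUO against contralateral, and contralateral against healthy kidneys; filled points passed the edgeR test at an adjusted p under 0.05. All 9 are filled in the first 2 panels, and only Stat3 and Socs3 in the third.

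Markers of other cell types moved with these differences. The summed level of 6 macrophage markers was 415 to 628 CPM in WT UUO, 70.9 to 84.7 CPM in contralateral and 60.3 to 86.8 CPM in healthy kidneys. That of 6 fibroblast and pericyte markers was 1350 to 2500 CPM in WT UUO, 173 to 223 CPM in contralateral and 188 to 257 CPM in healthy kidneys. All 6 markers of each list were higher in WT UUO in both comparisons by edgeR. The 5 neutrophil markers summed to 16.6 to 27 CPM in WT UUO, 2.26 to 7.58 CPM in contralateral and 2.01 to 5.41 CPM in healthy kidneys, with 3 of 5 higher against healthy and 2 of 5 against contralateral kidneys. The 4 markers of injured tubule summed to 696 to 844 CPM in WT UUO, 11.2 to 12.9 CPM in contralateral and 19.5 to 68.6 CPM in healthy kidneys, and all 4 were called higher in both comparisons. The 5 proximal tubule markers were all called lower in both, at sums of 619 to 1410 CPM in WT UUO, 11000 to 13700 CPM in contralateral and 10000 to 11300 CPM in healthy kidneys. All 4 markers of loop, distal tubule and collecting duct were likewise called lower in both. The 5 urothelium markers summed to 23.2 to 334 CPM in WT UUO, 1.79 to 14.8 CPM in contralateral and 0.468 to 3.3 CPM in healthy kidneys, with 4 of 5 called higher against contralateral and 5 of 5 against healthy kidneys. Of 5 endothelial markers, 3 were called higher and 1 lower against contralateral kidneys, and 2 higher and 2 lower against healthy kidneys. None of these markers was at 0 in a group. Their part in the results was not tested.

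Between the unobstructed kidneys, Stat3 and Socs3 were higher in the contralateral than in the healthy group, and the other 7 tested members did not pass the test. Over all genes edgeR called 2.26% in either direction and 1.96% higher. Stat3 and Socs3 were also the 2 members with no overlap between the groups, both with contralateral higher, as were 12.2% of all genes. Stat3 was 1.82-fold higher (edgeR log2 fold change 0.86 ± 0.11, adjusted p = 0.0029). In the 6 fits that leave out 1 library, its adjusted p lay between 0.00117 and 0.0174. Socs3 was 2.20-fold higher (1.14 ± 0.24, adjusted p = 0.0247), and its call was lost when healthy replicate 1 (adjusted p = 0.0898), healthy replicate 2 (0.0718), contralateral replicate 1 (0.0870) or contralateral replicate 2 (0.0863) was left out.

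Cre was present in 2 of 3 contralateral and 0 of 3 healthy mice. With the presence of Cre in the edgeR fit, the log2 fold change of Stat3 was 0.81 (adjusted p = 0.0357) and that of Socs3 was 0.71 (adjusted p = 0.203). Only the WT UUO and contralateral groups hold mice with and without Cre. In both, the mouse without Cre is the one with floxed alleles, so this fit cannot tell Cre from floxed alleles. It also treats Cdh5-CreERT2 and GGT-Cre as the same. With only the contralateral and healthy groups in the fit, neither Stat3 nor Socs3 passed the edgeR test (adjusted p = 0.153 for Stat3 and 0.232 for Socs3). The 95% intervals of the other members were widest for Il6 (log2 fold change -4.20 to 2.21) and Osm (-0.81 to 5.24), which had 2 and 6 counts in contralateral and 4 and 1 in healthy kidneys, and narrowest for Il6st (-0.26 to 0.43). The summed macrophage and fibroblast markers of these groups overlapped, and 0 of the 6 genes of each list passed edgeR, with 0 and 1 at an unadjusted p under 0.05, while 1 of 5 neutrophil markers was called higher. The 5 endothelial markers summed to 234 to 258 CPM in contralateral and 308 to 350 CPM in healthy kidneys, without overlap, and 2 of the 5 were called lower by edgeR. The part of these markers in the differences of Stat3 and Socs3 was not tested. Of the 22 genes known as STAT3-induced or acute-phase, 0 passed edgeR, with 5 at an unadjusted p under 0.05, while DESeq2 called 3 and limma voom 0. Over all 21050 genes, 3664 were at an unadjusted p under 0.05 in edgeR. DESeq2 called 1329 of all genes and limma voom 240.

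In the knockouts, Il11 was the ligand that passed the test against WT UUO kidneys. It was called lower in the Snail and Myc knockouts, and in the Twist knockout its difference missed the threshold. Socs3 was called lower in Myc cKO UUO kidneys. No other member passed the edgeR test against WT UUO kidneys, and no member was called higher. Each call rests on single libraries, as given with it. The labels give the Snail and Myc mice another strain mix than the WT UUO, contralateral and Twist mice. Strain and knockout therefore cannot be told apart where these mice are compared. The 3 comparisons share the 3 WT UUO libraries, which held the highest level of every tested member, so they are not independent of each other.

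**Figure D4:**
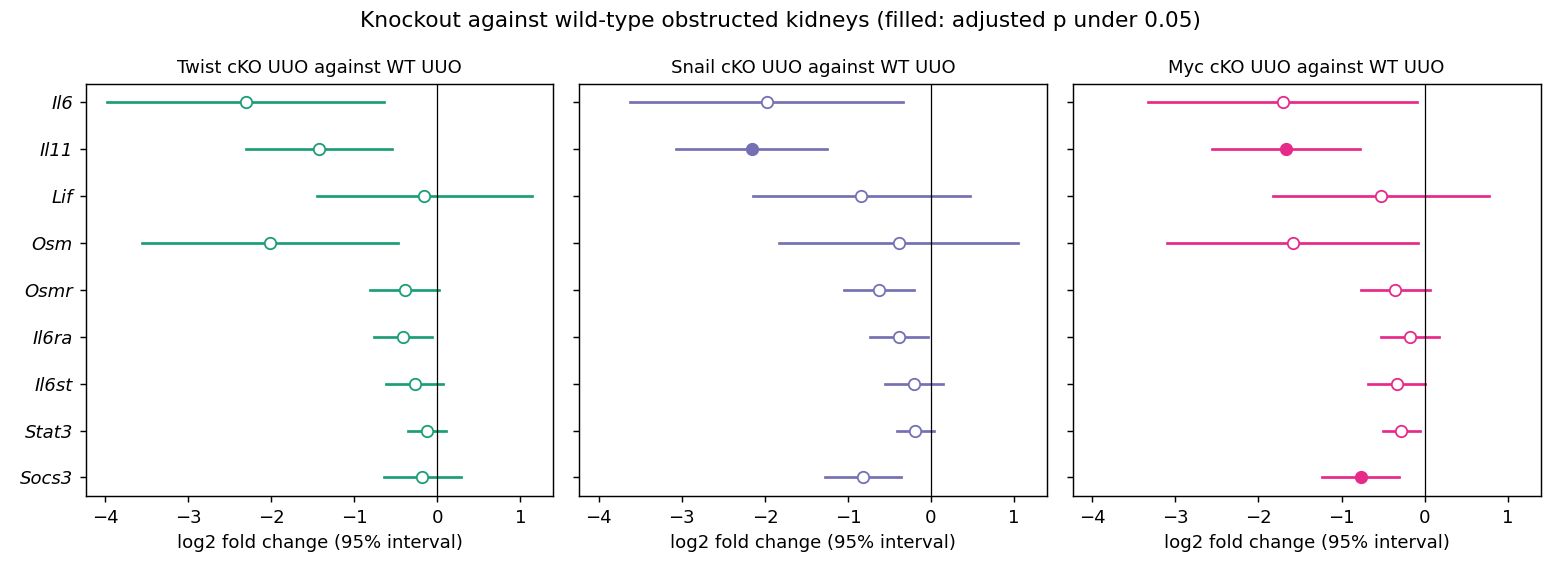
Log2 fold changes (x axis) with 95% intervals of the 9 tested members (y axis) in Twist, Snail and Myc cKO UUO against WT UUO kidneys; filled points passed the edgeR test at an adjusted p under 0.05. Filled are Il11 in the Snail panel (-2.16) and Il11 (-1.67) and Socs3 (-0.77) in the Myc panel; the intervals of Il6, Lif and Osm are the widest.

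In Twist cKO UUO against WT UUO kidneys, 0 of the 9 members passed the edgeR test, where 5.28% of all genes did. At an unadjusted p under 0.05 there were 4 (Il6, Il11, Osm and Il6ra), DESeq2 called 2 (Il6 and Il11) and limma voom 1 (Il11). Over all 21050 genes, 4811 were at an unadjusted p under 0.05 in edgeR. DESeq2 called 2494 of all genes and limma voom 1495. The libraries of the groups did not overlap for 7 members, all lower in Twist cKO UUO (all but Lif and Socs3), where 17% of all genes were lower without overlap. The median log2 fold change of the 9 members was -0.39, beside -0.01 over all genes.

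Snail cKO UUO kidneys differed from WT UUO by 1 member called lower, Il11, where 0.138% of all genes were called lower. The groups did not overlap for 7 members, all lower (all but Osm and Il6ra), beside 12.2% of all genes lower without overlap. The median log2 fold change of the members was -0.63, beside 0 over all genes.

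In Myc cKO UUO against WT UUO kidneys, 2 of the 9 members were called lower, where 6.91% of all genes were. Here too 7 members did not overlap, all lower (all but Lif and Il6ra), beside 16.6% of all genes. The median log2 fold change of the members was -0.53, beside 0 over all genes.

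Il11 had 0.548, 0.572 and 0.438 CPM in Twist cKO UUO, 0.228, 0.375 and 0.333 CPM in Snail cKO UUO and 0.638, 0.528 and 0.149 CPM in Myc cKO UUO kidneys, against 1.55, 0.973 and 1.69 CPM in WT UUO kidneys. No knockout library reached the lowest WT UUO library. In Snail cKO UUO kidneys it was 4.48-fold lower (edgeR log2 fold change -2.16 ± 0.43, adjusted p = 0.0484). That call was lost in each of the 6 fits without 1 library, with an adjusted p of 0.187 without WT UUO replicate 1, 0.0554 without WT UUO replicate 2, 0.0912 without WT UUO replicate 3, 0.195 without Snail cKO UUO replicate 1, 0.0563 without Snail cKO UUO replicate 2 and 0.166 without Snail cKO UUO replicate 3, while the log2 fold change stayed between -2.36 and -1.97. All Snail cKO UUO mice carried Cre and 1 WT UUO mouse did not. With Cre as a covariate, Il11 did not pass (-2.01, edgeR adjusted p = 0.0785), while Socs3 passed in the same comparison (-1.01, adjusted p = 0.0413). Here too the covariate cannot tell Cre from floxed alleles.

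In Myc cKO UUO kidneys Il11 was 3.18-fold lower (edgeR log2 fold change -1.67 ± 0.42, adjusted p = 0.0203). The adjusted p was 0.0750 without WT UUO replicate 1, 0.0602 without WT UUO replicate 3 and 0.0518 without Myc cKO UUO replicate 3. Without both WT UUO replicate 1 and Myc cKO UUO replicate 3 the log2 fold change was -1.19 (adjusted p = 0.144). In Twist cKO UUO kidneys the log2 fold change was -1.43 ± 0.41 (edgeR adjusted p = 0.0572, 95% interval -2.31 to -0.55).

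Il6 had 0.3, 0.11 and 0.146 CPM in Twist cKO UUO, 0.0719, 0.429 and 0.202 CPM in Snail cKO UUO and 0.513, 0.282 and 0.0448 CPM in Myc cKO UUO kidneys, against 1.47, 0.661 and 0.648 CPM in WT UUO kidneys. All 9 knockout libraries lay below the WT UUO libraries, at 3 to 37 counts each. The log2 fold changes of Il6 were -2.31 ± 0.79, -1.98 ± 0.77 and -1.71 ± 0.76 in Twist, Snail and Myc cKO UUO, and none passed the edgeR test (adjusted p = 0.0962, 0.247 and 0.157).

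Lif had 5.86, 10.2 and 8.91 CPM in Twist cKO UUO, 5.46, 5.45 and 4.68 CPM in Snail cKO UUO and 7.06, 11.6 and 0.657 CPM in Myc cKO UUO kidneys, against 7.6, 12 and 8.29 CPM in WT UUO kidneys. The Twist and Myc groups overlapped WT UUO, while all Snail libraries lay below it. The difference in the Myc group turned on replicate 3: the log2 fold change of Lif was -0.53 ± 0.61 with it and 0.01 without it (edgeR adjusted p = 0.622 and 0.994).

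Osm had 0.183, 0.183 and 0.0438 CPM in Twist cKO UUO, 0.18, 0.71 and 0.405 CPM in Snail cKO UUO and 0.291, 0.147 and 0.119 CPM in Myc cKO UUO kidneys, against 0.627, 0.761 and 0.306 CPM in WT UUO kidneys. The Twist and Myc libraries lay below all WT UUO libraries, and the Snail libraries overlapped them. None of the differences passed the edgeR test (adjusted p = 0.111, 0.84 and 0.157 for Twist, Snail and Myc cKO UUO).

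None of the 3 receptor genes passed the edgeR test against WT UUO in a knockout. Osmr had 119, 109 and 103 CPM in Twist cKO UUO, 92, 108 and 80.2 CPM in Snail cKO UUO and 129, 133 and 78.5 CPM in Myc cKO UUO kidneys, all below the 142 to 151 CPM of WT UUO kidneys. Its log2 fold changes were -0.39 ± 0.20, -0.63 ± 0.20 and -0.35 ± 0.19 (edgeR adjusted p = 0.247, 0.157 and 0.257 for Twist, Snail and Myc cKO UUO). Il6st also lay below every WT UUO library in all 3 knockouts, at 386 to 411 CPM in Twist, 407 to 445 CPM in Snail and 299 to 448 CPM in Myc cKO UUO, against 460 to 498 CPM in WT UUO kidneys. Il6ra spanned 8.38 to 10.2 CPM in Twist cKO UUO, 8.34 to 10.6 CPM in Snail cKO UUO and 8.89 to 12.1 CPM in Myc cKO UUO, against 10.6 to 14.6 CPM in WT UUO kidneys. The log2 fold changes of Il6ra and Il6st lay between -0.42 and -0.18 in the 3 comparisons.

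Stat3 had 170, 161 and 163 CPM in Twist cKO UUO, 154, 163 and 155 CPM in Snail cKO UUO and 132, 156 and 155 CPM in Myc cKO UUO kidneys, against 170, 187 and 180 CPM in WT UUO kidneys. Its log2 fold changes of -0.12 ± 0.11, -0.19 ± 0.11 and -0.28 ± 0.11 in Twist, Snail and Myc cKO UUO did not pass the edgeR test (adjusted p = 0.529, 0.432 and 0.101), and the furthest bound of the 95% intervals was -0.50, in Myc cKO UUO.

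Socs3 had 42.6, 43.7 and 38.1 CPM in Twist cKO UUO, 24.6, 27.9 and 27.2 CPM in Snail cKO UUO and 24.7, 34.7 and 22.9 CPM in Myc cKO UUO kidneys, against 55.9, 43.4 and 41.4 CPM in WT UUO kidneys. The Twist libraries overlapped WT UUO, and all Snail and Myc libraries lay below both. In Myc cKO UUO kidneys Socs3 was 1.71-fold lower (edgeR log2 fold change -0.77 ± 0.22, adjusted p = 0.0315).

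That Socs3 call in the Myc group was lost without WT UUO replicate 1 (adjusted p = 0.146), WT UUO replicate 2 (0.0598), Myc cKO UUO replicate 1 (0.0750) or Myc cKO UUO replicate 3 (0.136). Without both WT UUO replicate 1 and Myc cKO UUO replicate 3 the log2 fold change of Socs3 was -0.51 (edgeR adjusted p = 0.354). In Snail cKO UUO kidneys the log2 fold change was similar in size, -0.82 ± 0.22, and did not pass (edgeR adjusted p = 0.113), while DESeq2 (adjusted p = 0.0151) and limma voom (adjusted p = 0.0354) called it. In Twist cKO UUO kidneys it was -0.18 ± 0.21 (edgeR adjusted p = 0.678). Per kilobase, Socs3 stood at 0.832 ± 0.0634 of Stat3 in Twist, 0.557 ± 0.0267 in Snail and 0.612 ± 0.124 in Myc cKO UUO kidneys, against 0.869 ± 0.186 in WT UUO kidneys (SD, n = 3 each).

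Several lists of cell type markers moved here as well, and others did not. The summed macrophage markers were 311 to 367 CPM in Twist, 318 to 413 CPM in Snail and 327 to 433 CPM in Myc cKO UUO, against 415 to 628 CPM in WT UUO kidneys, and edgeR called 2, 0 and 2 of the 6 lower. The summed fibroblast and pericyte markers were 794 to 876 CPM in Twist, 984 to 1320 CPM in Snail and 411 to 1180 CPM in Myc cKO UUO, against 1350 to 2500 CPM in WT UUO kidneys, with 1, 0 and 2 of the 6 called lower. The 5 endothelial markers summed to 221 to 261 CPM in Twist, 245 to 271 CPM in Snail and 254 to 274 CPM in Myc cKO UUO, all below the 282 to 390 CPM of WT UUO kidneys, with 2, 0 and 2 of the 5 called lower. The 5 proximal tubule markers summed to 2120 to 3450 CPM in Twist, 1480 to 2280 CPM in Snail and 1990 to 3560 CPM in Myc cKO UUO, all above the 619 to 1410 CPM of WT UUO kidneys, with 3, 1 and 3 of the 5 called higher. The 5 neutrophil markers summed to 16.6 to 27 CPM in WT UUO kidneys. In Twist, Snail and Myc cKO UUO they summed to 7.44 to 8.66, 10.4 to 14.4 and 7.95 to 38.9 CPM, with 0, 0 and 1 called lower. Of the 4 markers of loop, distal tubule and collecting duct, 1, 0 and 1 were called higher. The 411 CPM of fibroblast and pericyte markers belonged to Myc cKO UUO replicate 3, which also held the highest neutrophil sum (38.9 CPM). The 2500 CPM belonged to WT UUO replicate 1, which also held the highest urothelium sum (334 CPM). Of 4 injured tubule, 5 T cell, 3 podocyte and 5 urothelium markers, edgeR called 0 in each of these comparisons. The injured tubule markers summed to 696 to 844 CPM in WT UUO kidneys. In Twist, Snail and Myc cKO UUO they summed to 518 to 752, 582 to 745 and 530 to 829 CPM. Over all genes, 2.31%, 0.138% and 6.91% were called lower, and 625, 34 and 1117 of 21050 were called higher. No marker of these lists was at 0 in a group, and their part in the differences was not tested.

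The knockouts were compared directly with each other. edgeR called 0 of the 9 members in Twist against Snail (0.171% of all genes called), in Myc against Twist (2.99%) and in Myc against Snail cKO UUO (2.45%), with 2, 1 and 0 members at an unadjusted p under 0.05. Over all 21050 genes, 1373, 3698 and 3609 were at such a p in these 3 comparisons. DESeq2 and limma voom also called 0 members in each. Of all genes, DESeq2 called 152, 1624 and 1432, and limma voom 42, 780 and 647. Of the 9 members 3 (Il11, Lif and Socs3) were higher without overlap in Twist than in Snail cKO UUO kidneys, as were 7.62% of all genes. Their log2 fold changes were 0.73 ± 0.42, 0.68 ± 0.61 and 0.64 ± 0.22, and none passed (edgeR adjusted p = 0.875, 0.941 and 0.547). With only these 2 groups in the fit, Socs3 passed (edgeR adjusted p = 0.0498). In Myc against Twist cKO UUO it was -0.60 ± 0.22 (edgeR adjusted p = 0.155, 95% interval -1.05 to -0.14).

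The obstructed knockout kidneys lay above the unobstructed ones as well. Against contralateral kidneys, edgeR called 8 members higher in Twist cKO UUO (all but Osm, adjusted p = 0.0956), 9 in the Snail and 9 in the Myc knockout. Over all genes, 21.5%, 23.7% and 22% were called higher in the Twist, Snail and Myc comparisons. The tested ligands passed the filter on low counts only through obstructed kidneys, which favoured a rise for them here too. Lif differed most in proportion among the ligands, with log2 fold changes of 5.44 ± 0.79, 4.76 ± 0.77 and 5.07 ± 0.78. Those of Il6 were 3.81 ± 1.16, 4.14 ± 1.14 and 4.4 ± 1.14, over only 2 counts in the contralateral kidneys. Those of Socs3 were 3.53 ± 0.24, 2.89 ± 0.23 and 2.94 ± 0.23.

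Some of these calls rest on single libraries. In Twist cKO UUO, Il6 was lost without contralateral replicate 3 (edgeR adjusted p = 0.0579) or Twist cKO UUO replicate 1 (0.0555), Il6st without contralateral replicate 1 (0.0537) or 3 (0.0583), and Osm passed without contralateral replicate 1 (0.0237). In Myc cKO UUO, Il6st (edgeR adjusted p = 0.0237, groups overlapping) was lost without contralateral replicate 1 (0.0846) or 3 (0.0936) or Myc cKO UUO replicate 1 (0.116) or 2 (0.0603). Osm (0.041) was lost without contralateral replicate 2 (0.123) or 3 (0.126) or Myc cKO UUO replicate 1 (0.143) or 2 (0.0551).

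Lists of related genes, not all specific to the IL-6 family, gave a mixed picture in WT UUO against healthy kidneys. Among the other ligand genes, Ebi3, a subunit shared by IL-27 and IL-35, and Il27, the other IL-27 subunit, were higher (log2 fold change 1.76 ± 0.40 and 3.22 ± 0.99, edgeR adjusted p = 0.00157 and 0.012).

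Of 5 other receptors, 1 was higher and 2 were lower, where 29.2% of all genes were higher and 27.1% lower. Il27ra, the IL-27 receptor chain, was higher (log2 fold change 2.65 ± 0.30), while Il11ra1, the receptor chain of IL-11, was lower (-0.98 ± 0.10), and so was Lifr, the receptor chain of LIF (-0.43 ± 0.11; edgeR adjusted p = 2.79e-06, 1.59e-06 and 0.00401). Il11ra1 had 19.1, 18.5 and 18.8 CPM in WT UUO kidneys, against 39, 38.1 and 34.2 CPM in healthy kidneys. Against contralateral kidneys Il11ra1 was lower as well (-1.08 ± 0.10, edgeR adjusted p = 9.41e-07), while Lifr did not pass (-0.20 ± 0.11, edgeR adjusted p = 0.145).

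Beside the same shares of all genes, 4 of 6 kinases and adaptors were higher, led by Jak3 (1.75 ± 0.17) and Tyk2 (0.90 ± 0.11), with 2 of 6 called without healthy replicate 3. Of 6 other STATs, 4 were higher, among them Stat2 (0.85 ± 0.14) and Stat6 (0.57 ± 0.11), and Stat5b (-0.39 ± 0.08) and Stat5a (-0.58 ± 0.13) were lower. Stat3 and Stat5a lie on opposite strands of chromosome 11 with 72 shared exon bases. Of 6 other brakes, 5 were higher, among them Socs1 (2.71 ± 0.60) and Socs2 (1.53 ± 0.36), and none was lower.

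Of 22 genes known as STAT3-induced or acute-phase, a list chosen with these data known, 15 were higher and 2 lower in WT UUO than in healthy kidneys, with a median log2 fold change of 2.22 beside 0.05 over all genes. Over all genes 29.2% were higher and 27.1% lower. Against contralateral kidneys 17 were higher and 2 lower, where 27.5% of all genes were higher and 26% lower. The 2 lower genes were Ccnd1 and Bcl2l1 in both comparisons. Lcn2, which encodes the injury marker lipocalin 2 (NGAL), had 215, 155 and 273 CPM in WT UUO kidneys, against 0.936, 0.84 and 0.837 CPM in healthy kidneys (edgeR log2 fold change 7.94 ± 0.32, adjusted p = 1.02e-09). Il4ra, a chain of the IL-4 receptor, Pim1, a survival kinase, and Junb, a member of the AP-1 family, were higher with log2 fold changes of 2.73 ± 0.17, 2.13 ± 0.15 and 2.87 ± 0.20 (edgeR adjusted p = 2.47e-08, 5.6e-08 and 6.46e-08).

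**Figure D5:**
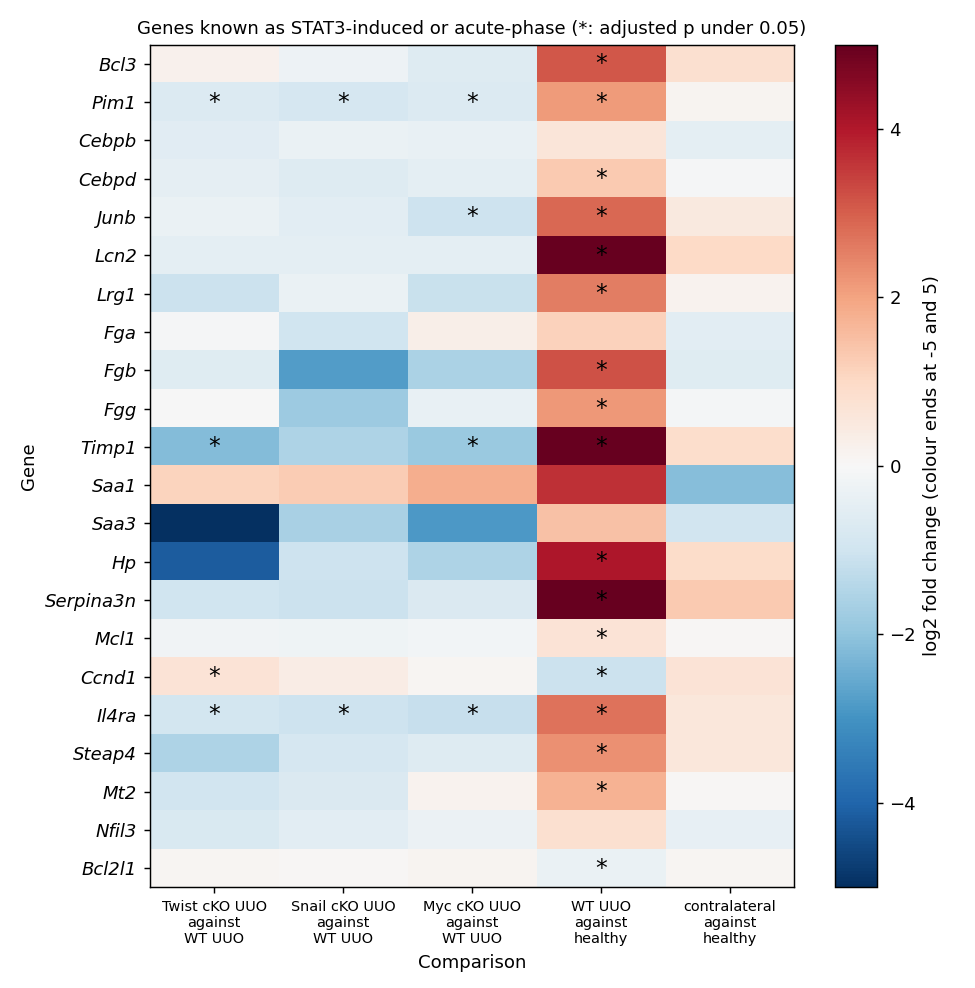
Log2 fold changes (colour) of 22 genes known as STAT3-induced or acute-phase (y axis) in 5 comparisons (x axis); an asterisk marks an edgeR adjusted p under 0.05, and values beyond the ends of the scale take the end colour. In WT UUO against healthy kidneys 17 carry an asterisk. In Twist, Snail and Myc cKO UUO against WT UUO kidneys 4, 2 and 4 do, and 0 in contralateral against healthy kidneys. The text gives the shares over all genes.

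In the knockouts against WT UUO kidneys, 3 of these 22 genes were lower and 1 higher in Twist cKO UUO, 2 were lower in the Snail and 4 in the Myc knockout. Over all genes in the Twist comparison, 2.31% were lower and 2.97% higher. In the Snail and Myc comparisons 0.138% and 6.91% of all genes were lower. Il4ra had 48.3, 55.3 and 46.9 CPM in Twist, 37.6, 51.7 and 49.2 CPM in Snail and 47.5, 41 and 39.2 CPM in Myc cKO UUO, against 115, 94.3 and 71.8 CPM in WT UUO kidneys. It was lower in each (edgeR log2 fold change -0.90 ± 0.16, -1.02 ± 0.16 and -1.14 ± 0.16, adjusted p = 0.0143, 0.0124 and 0.00177). Pim1 was likewise lower in each (-0.70 ± 0.14, -0.84 ± 0.14 and -0.68 ± 0.14, adjusted p = 0.0216, 0.0254 and 0.00917). Of the 6 fits without 1 library, the Il4ra call was lost in 2 for Twist, 3 for Snail and 0 for Myc cKO UUO.

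Timp1, which blocks matrix-degrading proteases, was lower in Twist and Myc cKO UUO kidneys (edgeR log2 fold change -2.17 ± 0.42 and -1.84 ± 0.41, adjusted p = 0.0185 and 0.0125). Junb was lower in Myc cKO UUO (-1.05 ± 0.19, adjusted p = 0.00466). Ccnd1, a cyclin of the entry into the cell cycle, was the gene that was higher in Twist cKO UUO (0.70 ± 0.18, adjusted p = 0.0402). It had been lower in WT UUO than in contralateral or healthy kidneys. The Ccnd1 call in Twist cKO UUO was lost in 5 of the 6 fits without 1 library (edgeR adjusted p 0.0424 to 0.181). The count of genes called from this list was 0 in Twist and 0 in Snail cKO UUO without WT UUO replicate 1. It was also 0 in Twist without Twist cKO UUO replicate 2 and 0 in Snail without Snail cKO UUO replicate 1 or 3, and it was 1 without Twist cKO UUO replicate 3 and 1 in Snail without WT UUO replicate 2. In Myc cKO UUO it was 2 without both WT UUO replicate 1 and Myc cKO UUO replicate 3. Of the lists of related genes, Tyk2 (-0.55 ± 0.11), Jak3 (-0.64 ± 0.17) and Stat6 (-0.37 ± 0.11) were lower in Myc cKO UUO kidneys (edgeR adjusted p = 0.00778, 0.0241 and 0.0496). Without WT UUO replicate 1 only Tyk2 remained. From the list of other STATs, which includes Stat6, 0 were called in 5 of the 6 fits without 1 library. No gene of the lists of ligands, receptors, kinases, STATs and brakes was called in Twist or Snail cKO UUO against WT UUO kidneys by edgeR, DESeq2 or limma voom, with 0 to 2 per list at an unadjusted p under 0.05 in edgeR for Twist and 0 for Snail. Over all 21050 genes, 4811 and 3130 were at such a p in the Twist and Snail comparisons.

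Compared per kilobase of exon, Il6st, Stat3, Socs3 and Osmr lay above the ligands and Il6ra. In WT UUO kidneys Il6st stood at 43.7 CPM per kb, Stat3 at 18.8, Socs3 at 16.2 and Osmr at 12 CPM per kb. Lif stood at 2.13, Il6ra at 1.44, Il11 at 0.674, Il6 at 0.381 and Osm at 0.248 CPM per kb. Osmr thus exceeded Il6ra in level, and Lif exceeded the other tested ligands.

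WT UUO had the highest group mean for all 9 members, and the order of the knockouts below it differed between members. In that order neighbouring obstructed groups did not differ by edgeR for any member. The step from the lowest obstructed group to the next unobstructed group passed the test for 8 members, all but Osm. The step from contralateral to healthy kidneys passed for Stat3 and Socs3 only.

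The genes whose profile over the 18 libraries was most like that of a member were found by the root mean square difference of centred log2 CPM, among 13138 genes. For Il6ra it was Il16 (0.14), for Il6st Smad2 (0.13), for Stat3 Ssbp4 (0.17) and for Osmr Fosl2 (0.21). For Lif it was Rgs16 (0.57), for Il11 Hist1h4j (0.35), for Il6 Il33 (0.44), for Osm Hist1h2bk (0.40) and for Socs3 the gene listed as D17H6S56E-5 (0.39). The median over all these genes was 1.07 for Osmr and 1.88 for Socs3. The 12 obstructed and 6 unobstructed libraries differ in most genes, which many profiles share.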

How the data were processed

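Raw counts per gene were deposited by the authors, together with a normalized table that was not used. The submitters' processing notes name bcl2fastq 1.8.4, HTSeq and DESeq2, with the mm10 build. The aligner and the gene annotation, and whether counting used strand, were not given in the sources used here. Per the labels' protocols, total RNA was extracted from part of each kidney and read as stranded paired-end libraries. Of 24 columns, 18 matched a sample by name and 6 entered no step.

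Tests ran in edgeR 4.0.16 under R 4.3.3: filterByExpr, TMM scaling, and 1 robust quasi-likelihood fit over all 18 libraries with 12 residual degrees of freedom and Benjamini-Hochberg adjustment over 21050 genes, two-sided. A gene was called at an adjusted p under 0.05. No pair of libraries was identical. Intervals on counts are exact, at 95%, and cover counting error only. Alternatives included DESeq2 1.42.0 and limma voom 3.58.1. Sex, a covariate in another alternative, was read from the counts, as male where Ddx3y exceeded Xist. By this rule 1 of 3 kidneys was male in each of the WT UUO, Twist cKO UUO, contralateral and healthy groups. In Snail and in Myc cKO UUO 2 of 3 were male. The steps were tested on simulated data. Exon lengths and positions came from GENCODE M21; the macrophage marker Adgre1 was read under its older symbol Emr1.

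Members, lists and the rule for named genes were chosen with earlier results of these data known. The rule names all members, the targeted genes, up to 4 called genes with the smallest p per list and comparison, and the genes most like each member with a mean of at least 1 CPM, on log2(CPM + 0.1). A gene of the list of other ligands is not reported here.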

Additional observations from a re-analysis of the deposited data

How the results depend on the processing

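In WT UUO against healthy and against contralateral kidneys, all 9 members were called in every fit that left out 1 library. Elsewhere the number of members called moved. In Snail cKO UUO against WT UUO it was 0 with no filter, 0 with only these 2 groups, 2 with DESeq2 and 2 with limma voom, 1 with Cre as a covariate (Socs3 in place of Il11), and 0 in each fit without 1 library. In Twist cKO UUO against WT UUO it was 1 with at least 1 CPM in 3 libraries, 1 with sex as a covariate, 1 with limma voom, 2 with DESeq2 and 2 with only these 2 groups. In Myc cKO UUO against WT UUO it was 0 with only these 2 groups, 0 without WT UUO replicate 1 and Myc cKO UUO replicate 3, and 0 to 2 without 1 library. In contralateral against healthy kidneys it was 1 with Cre as a covariate, 1 with limma voom, 0 with only these 2 groups and 1 to 2 without 1 library. In Twist against Snail cKO UUO it was 1 with only these 2 groups.

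Over all genes, Twist cKO UUO against WT UUO gave 1111 calls, and 733 with no filter, 1831 with sex as a covariate, 2494 with DESeq2 and 13 to 1057 without 1 library. Snail cKO UUO against WT UUO gave 63, and 145 with sex, 787 with DESeq2, 182 with limma voom, 11 with only 2 groups and 15 to 141 without 1 library. Myc cKO UUO against WT UUO gave 2572, and 5 with only 2 groups, 287 without WT UUO replicate 1 and Myc cKO UUO replicate 3, and 797 to 3025 without 1 library. Contralateral against healthy gave 476, and 75 with Cre, 718 with sex, 1329 with DESeq2, 240 with limma voom, 3 with only 2 groups and 44 to 977 without 1 library. Twist against Snail gave 36, and 152 with DESeq2, 56 with only 2 groups and 14 to 25 without 1 library. Myc against Twist gave 630, and 1624 with DESeq2, 31 with only 2 groups and 194 to 515 without 1 library. Myc against Snail gave 515, and 1432 with DESeq2, 16 with only 2 groups and 57 to 691 without 1 library. Fits on only 2 groups estimate the spread from fewer samples; the cause of the other shifts was not tested.

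Changes of sign met only log2 fold changes that had not passed the test. With Cre as a covariate in contralateral against healthy they were 0.18 for Il11, -0.11 for Osmr and -0.04 for Il6st, and with limma voom -0.37 for Lif in Myc against Snail cKO UUO. Without 1 library, contralateral against healthy spanned -1.51 to 0.35 for Il6, -0.33 to 0.17 for Il11, -0.24 to 0.58 for Lif, -0.18 to 0.18 for Osmr and -0.06 to 0.27 for Il6st. Lif spanned -0.33 to 0.08 in Twist and -1.25 to 0.01 in Myc cKO UUO against WT UUO. Twist against Snail spanned -0.86 to 0.43 for Il6 and -0.12 to 0.05 for Il6ra. Myc against Twist spanned -0.15 to 1.14 for Il6, -0.60 to 0.16 for Il11, -1.10 to 0.16 for Lif, -0.04 to 0.69 for Osm, -0.08 to 0.25 for Osmr and -0.18 to 0.09 for Il6st. Myc against Snail spanned -0.48 to 1.04 for Il6, -0.42 to 0.84 for Lif, -0.25 to 0.03 for Il6st and -0.15 to 0.16 for Socs3. The fits for the pathway lists were chosen after the data were seen. No paired analysis was possible because the labels give no replicate numbers shared between groups. Il6 and Osm had 42 and 32 counts in Twist cKO UUO; the parts of counting error and of the spread between samples were not separated.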
